A study of Mus musculus with 7 samples.

Results

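The data on 8 rows of the gene count table are described: 7 whose counts were many times lower in one *Ptbp1* genotype than in the other, and *Hmgb1*, the gene from which one of the 7 was copied. The table has 48440 rows, of which 20019 were tested across genotypes. The 7 switching rows were chosen by their counts, from the gap between the homozygous mutant (KO) and heterozygous (Het) libraries, so that difference is described here and not tested. Of the 7, 6 are annotated as pseudogenes (5 of them processed pseudogenes) and 1, *1700001K19Rik*, as protein coding, so not all of them are pseudogenes.

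A processed pseudogene is a DNA copy of a spliced messenger RNA that was written back into the genome. It lacks the introns of its parent gene, lies elsewhere in the genome and usually has no promoter of its own. An unprocessed pseudogene is a duplicated stretch of genomic DNA that keeps exons and introns. Because a copy can be nearly identical to its parent, a sequencing read from one may be counted on the other, and a count on a pseudogene row alone does not show which locus was transcribed.

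Bulk RNA-seq was made from mouse retina at embryonic day 16, from 36 retinas pooled by genotype into 7 libraries of 4 to 6 retinas. All 7 carry *Chx10-Cre*, which expresses a Cre-GFP fusion in retinal progenitors, the dividing cells from which the retinal neurons and Müller glia arise. The 1 WT library is labelled Chx10Cre, the 3 Het libraries Chx10-Cre;Ptbp1lox/WT and the 3 KO libraries Chx10-Cre;Ptbp1lox/lox, whose loxP sites lie on either side of the promoter and 1st exon of *Ptbp1*, a splicing repressor. The replicates are pools, and neither the strain background of the mice nor which pools share a litter is given in the sources used here.

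*Ptbp1*, the targeted gene, had 56666 counts in WT, 26046 to 35733 in the Het libraries and 795 to 6248 in the KO libraries, in the order its labels give. Library totals ran from 120593979 to 171117305 counts, and no pair of replicates was a copy of another. Levels are given as CPM, counts scaled to a common library size. All 11 retinal markers were above 72 CPM in every library. Of the marker lists of other cells, microglial genes summed to 38.2 to 54.0 CPM in Het and 56.7 to 74.9 in KO, and vessel genes to 382 to 399 in Het and 482 to 578 in KO; male germ cell genes stayed between 0.547 and 1.46. Other lists were highest in a Het library. Pigment cell genes summed to 28.01 to 520 CPM in Het and 19.0975 to 54.2 in KO, skeletal muscle genes to 8.23 to 259 and 9.18 to 10.8, lens genes to 22.9 to 74.1 and 1.79 to 40.6, and erythroid genes to 187 to 526 and 24.0 to 297. The part of these cells in the results was not tested. In bulk tissue, fewer cells of a type and less RNA per cell cannot be told apart.

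Of the 7 switching rows, 6 had a parent by sequence, meaning the protein-coding gene whose transcript aligned best over at least 50% of the row at 80% identity or more (GENCODE M21 transcripts, GRCm38). *Hmgb1-ps7* (chr7:42020836-42021483, plus strand, 648 bases in 1 exon) matched the whole coding sequence of *Hmgb1*, a DNA-bending chromatin protein encoded on chr5:149046702-149184489, minus strand, with 9 mismatches and 98.6% identity. *Gm13443* (chr2:35340409-35340963, plus strand) matched the whole 555-base coding sequence of *Glo1*, glyoxalase I, which detoxifies methylglyoxal, with 3 mismatches. *Gm12751* (chr4:34354043-34354423, plus strand) was identical to all 381 coding bases of *Polr1d*, a subunit shared by RNA polymerases I and III. *Gm17669* (plus strand, 442 bases in 1 exon) and *Gm15526* (chr6:54177480-54177683, minus strand) both matched *Rpl29*, a protein of the large ribosomal subunit, with 9 mismatches over 442 bases and 3 over 204. *RP23-9C19.1* (chr13:13323364-13350427, plus strand), the unprocessed pseudogene, kept 10 exons and matched *Ero1lb*, an oxidase of the endoplasmic reticulum that lies on the same chromosome, with 6 mismatches and 12 gap bases over 921 aligned bases. *1700001K19Rik* (chr12:110667688-110682619, minus strand, 955 exonic bases) had no protein-coding gene that met this rule.

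The stretches below set 4 of the pseudogenes beside the spliced coding sequence of the parent, 120 bases each on the sense strand, with the bases that differ in capitals, to show how few positions could assign a read to one or the other. The *Hmgb1* stretch joins exons 4 and 5 within chr5:149048814-149049746, the *Rpl29* stretch exons 3 and 4, and the *Ero1lb* stretch exons 15 and 16; the pseudogene stretches are chr7:42021287-42021406, chr6:54177518-54177637 and, over exons 9 and 10, chr13:13348051-13350389. The *Gm12751* stretch, chr4:34354043-34354162, has no differing base, so 1 line stands for both it and *Polr1d*.
Hmgb1-ps7: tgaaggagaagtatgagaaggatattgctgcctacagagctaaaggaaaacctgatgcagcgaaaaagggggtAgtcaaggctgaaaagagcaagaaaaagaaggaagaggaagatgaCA
Hmgb1: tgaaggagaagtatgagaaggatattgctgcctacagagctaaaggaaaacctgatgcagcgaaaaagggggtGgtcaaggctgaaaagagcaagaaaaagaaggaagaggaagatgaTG
Gm12751 and Polr1d: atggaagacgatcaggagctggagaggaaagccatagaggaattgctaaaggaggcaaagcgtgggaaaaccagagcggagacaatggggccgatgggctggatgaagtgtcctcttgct
Gm15526: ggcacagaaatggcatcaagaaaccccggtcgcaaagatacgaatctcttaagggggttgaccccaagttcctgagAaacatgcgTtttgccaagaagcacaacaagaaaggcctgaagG
Rpl29: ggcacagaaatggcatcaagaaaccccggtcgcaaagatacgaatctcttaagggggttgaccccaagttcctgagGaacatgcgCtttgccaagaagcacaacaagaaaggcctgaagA
RP23-9C19.1: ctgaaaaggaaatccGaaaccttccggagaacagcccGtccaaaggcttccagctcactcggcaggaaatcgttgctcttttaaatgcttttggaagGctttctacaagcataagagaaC
Ero1lb: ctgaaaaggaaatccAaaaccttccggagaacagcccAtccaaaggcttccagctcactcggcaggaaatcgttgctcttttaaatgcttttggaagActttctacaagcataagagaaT
Each stretch was picked as the 120 gap-free coding bases with the most differences between the pair. In these stretches the *Hmgb1*, *Rpl29* and *Ero1lb* pairs differed at 3, 3 and 4 positions, the most of any such stretch.

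How much of each row could be told from other transcripts was measured as the share of its 100-base windows found exactly in the transcript of another annotated gene. That share was 100% for *Gm12751*, 61.6% for *Gm13443*, 56.3% for *RP23-9C19.1*, 27.9% for *Hmgb1-ps7*, 25.9% for *Gm17669* and 21.9% for *Gm15526*. It was 0% for *1700001K19Rik*. For *Hmgb1-ps7*, 105 of its 549 windows occurred in *Hmgb1* itself and the remaining shared windows in other genes that align to it. Only annotated transcripts could be searched, and how the counting treated reads that match several places is not given in the sources used here.

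Of the 7 rows, 4 were high in KO; over all genes tested, 4.01% were called higher in KO, and nothing is read from that comparison here. *Hmgb1-ps7* had 109 counts in WT, 138, 104 and 111 in Het1 to Het3, and 7336, 3348 and 4871 in KO1 to KO3. Its mean was 0.806 ± 0.0710 CPM in Het and 39.1 ± 15.1 in KO (SD, n = 3 each), a 48.6-fold ratio. No KO library came near a Het library, and the WT library lay inside the Het range.

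*Gm13443* had 10 counts in WT, 18, 15 and 15 in the Het libraries, and 807, 403 and 208 in the KO libraries, a 32.4-fold ratio of the KO to the Het mean in CPM. Its KO pools spread the most of the 4, 3.90-fold from the highest to the lowest, and without KO1 the ratio was 20.97-fold. *Gm12751* had 45 counts in WT, 24, 23 and 30 in the Het libraries, and 799, 413 and 521 in the KO libraries, a 24.6-fold ratio. In both rows every KO library stood above every Het and WT library.

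*1700001K19Rik*, a gene of unknown function, was the lowest of the 4. It had 6 counts in WT, 6, 6 and 10 in the Het libraries, and 164, 172 and 96 in the KO libraries, a 21.5-fold ratio that rests on small Het counts. Its KO mean was 1.09 ± 0.320 CPM (SD, n = 3). This row, which shares no 100-base window with the transcript of another annotated gene, was chosen for the same kind of gap as the pseudogenes.

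The KO pools did not carry these rows equally. KO1 held 47.2% of the summed KO level of *Hmgb1-ps7*, 56.8% of that of *Gm13443* and 46.1% of that of *Gm12751*, beside 33.0% of that of *Hmgb1*. For *1700001K19Rik* KO2 was the highest, with 40.0%. KO3 held 14.6% of the *Gm13443* level but 31.2% of that of *Hmgb1-ps7*. The order of the KO pools therefore differed between rows.

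The other 3 rows were near 0 in KO, where 3.21% of all genes tested were called lower. *Gm17669* had 521 counts in WT, 175, 117 and 232 in the Het libraries, and 0, 2 and 0 in the KO libraries. With each KO library set to a floor of 3 counts, its KO mean was at least 52.1-fold lower than its Het mean. Every count in KO was at or under that floor.

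*Gm15526* had 93 counts in WT, 288, 217 and 356 in the Het libraries, and 2, 1 and 1 in the KO libraries, at least 86.3-fold lower in KO by the same floor. *RP23-9C19.1* had 111 counts in WT, 125, 101 and 194 in the Het libraries, and 1, 1 and 0 in the KO libraries, at least 42.1-fold lower. Het3 was the highest Het library in all 3 rows, by up to 1.74-fold over the lowest. The floors and ratios cover counting error only.

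**Figure D1:**
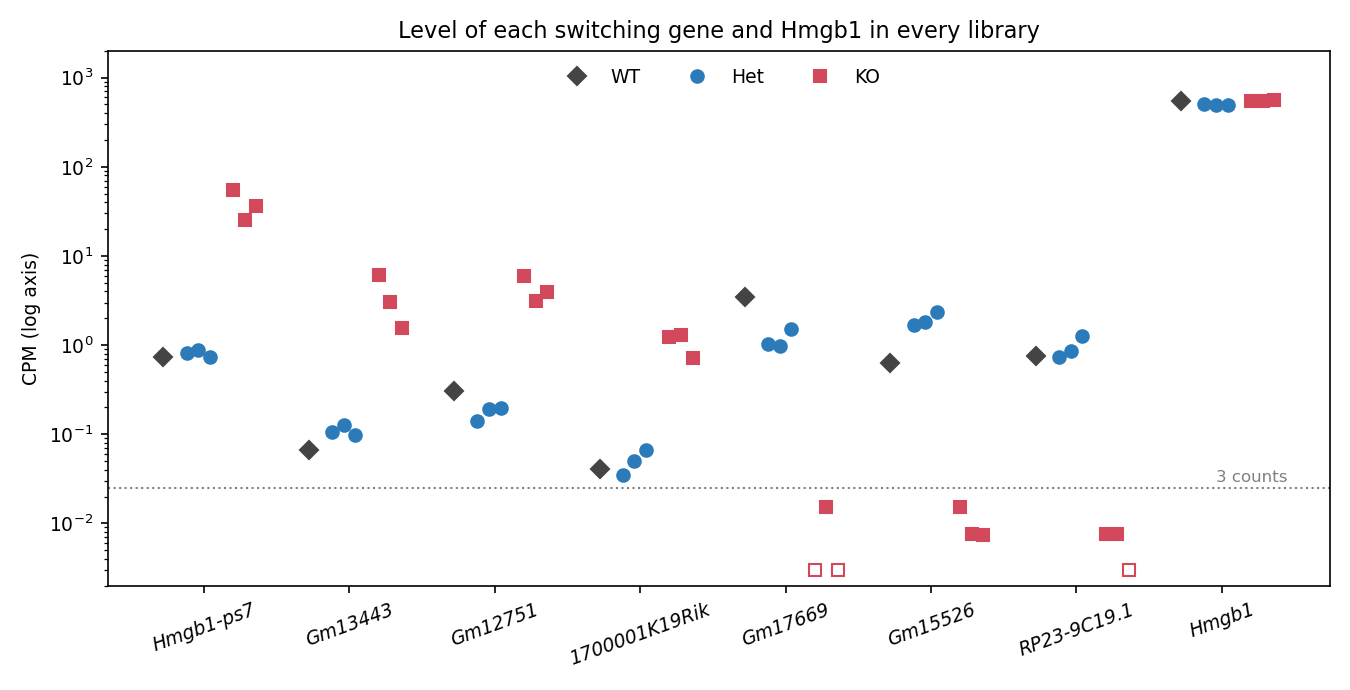
CPM (log axis) of the 7 switching rows and Hmgb1 in each of the 7 libraries, with WT as diamonds, Het as circles and KO as squares; open squares at the bottom mark a count of 0 and the dotted line marks 3 counts in the shallowest library. The first 4 rows are high in KO, the next 3 are at or under 3 counts in every KO library, and Hmgb1 lies near 500 CPM throughout.

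In all 7 rows the ranges of Het and KO were apart, which the choice of rows fixes. Over all genes tested, these ranges were apart in 36.3%. The gap behind that choice was between Het and KO, without WT. The rows were named with earlier results of these data known, so WT is not shown to be independent of the choice. On the log scale the WT library lay nearer Het than KO in 7 of 7 rows. The share of all genes tested for which this holds is not given here. Against Het, none of the 8 rows was called for WT by edgeR's quasi-likelihood test at an adjusted p under 0.05 and a change beyond 1.2-fold (0.005% of all genes tested were called, and 3.41% had an unadjusted p under 0.05). At that unadjusted limit, 3 of the 8 rows passed: *Gm15526*, *Hmgb1* and *Gm17669*. The single WT library was assumed to vary like the other groups, and the Het libraries are the same as those in the KO contrast.

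WT was not always inside the Het range, however. It lay outside for 4 of the 7 rows, beside 51.3% of all genes tested. *Gm17669* was 297% of the Het mean in WT (log2 fold change 1.57, SE 0.531, edgeR adjusted p = 0.9998) and *Gm12751* 171%. *Gm15526* was 32.0% of the Het mean (log2 fold change -1.64, SE 0.311, edgeR adjusted p = 0.831). DESeq2 called this last row, at an adjusted p of 0.0304. The WT library was thus above every Het library for one *Rpl29* copy and below every Het library for the other.

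The parents were found by sequence and not by their counts, so their KO against Het contrast was tested. Of all genes tested, 7.22% were called. Of the 5 parents 2 were called, *Ero1lb* higher and *Rpl29* lower. Each parent entered through a copy that was chosen on this contrast, and the reads of a parent and its copy may be shared. The calls are therefore not independent of that choice.

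*Hmgb1* had 81804 counts in WT, 85870, 58978 and 75270 in Het and 72108, 72219 and 74032 in KO, or 499 ± 5.76 CPM in Het and 550 ± 5.84 in KO (SD, n = 3 each). The difference was small (log2 fold change 0.14, SE 0.0299, edgeR adjusted p = 0.0333), under the 1.2-fold limit. All 3 KO libraries stood above all 3 Het libraries, and 36.3% of all genes tested had no overlap either way. The WT library, at 550 CPM, lay inside the KO range. *Hmgb1* and *Hmgb1-ps7* were thus both higher in KO, by 50.7 and 38.3 CPM, and their sum was 118% of the Het sum. The pseudogene row held 0.147% to 0.176% of the sum in Het and 4.43% to 9.23% in KO. Per kilobase of annotated exon, *Hmgb1-ps7* reached 60.4 CPM in KO and *Hmgb1* 109. These are not like measures, since the length is 648 coding bases for *Hmgb1-ps7* and 5023 bases over all annotated transcripts for *Hmgb1*.

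*Glo1* and *Polr1d* were lower in KO while their copies were higher, and neither reached the 1.2-fold limit. *Glo1* was at 118 ± 2.32 CPM in Het and 102 ± 4.71 in KO (log2 fold change -0.20, SE 0.0399, edgeR adjusted p = 0.0259). *Polr1d* was at 46.3 ± 0.915 in Het and 40.0 ± 1.52 in KO (log2 fold change -0.21, SE 0.0361, edgeR adjusted p = 0.0188). In neither gene did the Het and KO libraries overlap, and the same held for 36.3% of all genes tested.

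Because *Gm12751* and *Polr1d* are identical over the 381 bases, their sum was also taken. It was 46.5 ± 0.924 CPM in Het and 44.4 ± 1.19 in KO (SD, n = 3 each), 95.4% of Het, and the gain of 4.18 on the pseudogene row amounted to 66.1% of the difference of -6.32 on *Polr1d*. For *Glo1* and *Gm13443* the sum was 117.7 in Het and 105.6 in KO, 89.7% of Het, and the gain of 3.46 on the pseudogene row was 22.2% of the difference of -15.6 on *Glo1*. Since the copies were chosen for being high in KO, adding them to a lower parent narrows the difference by construction. Whether reads of one locus were counted on the other was not tested.

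*Rpl29* fell in KO together with its 2 switching copies. It had 34277 counts in WT, 24737, 20867 and 37314 in the Het libraries and 903, 829 and 788 in the KO libraries, with a log2 fold change of -4.90 (SE 0.217, edgeR adjusted p = 0.000493). *Rpl29* itself meets the description of a switching row. The 2 pseudogene rows held 1.55% to 1.84% of the reads of the 3 rows in Het, so nearly all of the loss lay on *Rpl29*, and *Rpl29* with both rows came to 3.31% of its Het sum.

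*Ero1lb* went the other way from its copy. It rose from 3.13 ± 1.26 CPM in Het to 9.86 ± 0.194 in KO (SD, n = 3 each; log2 fold change 1.66, SE 0.286, edgeR adjusted p = 0.0192), while *RP23-9C19.1* was near 0 in KO. Without KO2 the adjusted p was 0.0649 by edgeR. Among the Het libraries Het3 had the fewest *Ero1lb* counts, 279 against 543 and 519, and the most on *RP23-9C19.1*, 194 against 125 and 101. The sum of the pair was 241% of Het in KO.

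**Figure D2:**
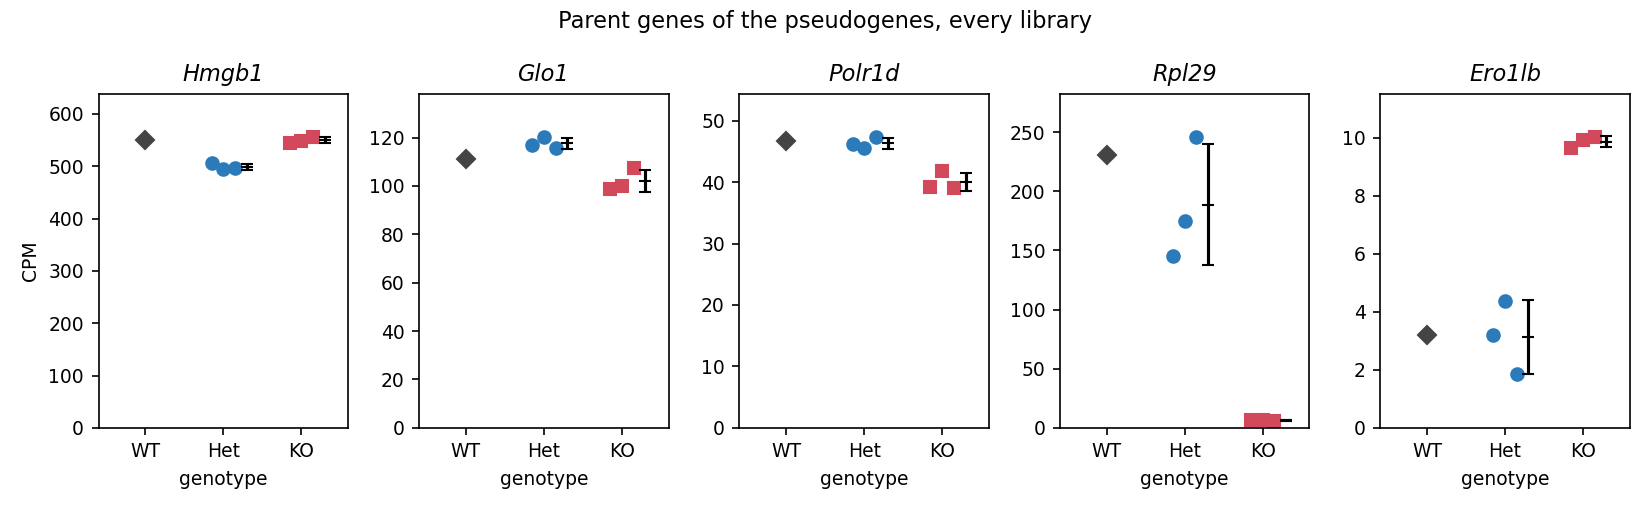
CPM of the 5 parent genes in every library, each panel on its own linear axis from 0, with WT as a diamond, Het as circles and KO as squares; the black mark is the mean and SD of 3 libraries. Hmgb1, Glo1 and Polr1d differ by less than 1.2-fold between Het and KO, Rpl29 is 6.34 against 189 CPM, and Ero1lb is 9.86 against 3.13.

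*Hmgb1* has many copies, so the others were examined as a list: *Hmgb2*, *Hmgb3*, *Hmgb4*, rows named Hmgb1-ps, and every gene aligned to an *Hmgb1* transcript over at least 300 bases at 85% identity. Of the 102 rows, 39 had no count in any library and 28 were tested besides *Hmgb1* and *Hmgb1-ps7*. Of these, 2 rose and 0 fell, 7.14% beside the 7.22% of all genes called, and the median log2 fold change was 0.29 beside -0.0047 over all genes tested. The share called was therefore near that of all genes.

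The 2 that rose were *Hmgb1-ps3* (143, 62 and 100 counts in Het; 589, 288 and 170 in KO; 34 in WT; log2 fold change 1.96, edgeR adjusted p = 0.0433) and *Gm5527* (3, 1 and 4 counts in Het; 45, 23 and 12 in KO; 3 in WT; log2 fold change 3.43, edgeR adjusted p = 0.0258). KO1, KO2 and KO3 held 56.2%, 27.7% and 16.1% of the KO level of *Hmgb1-ps3* and 56.2%, 28.9% and 14.9% of that of *Gm5527*, close to the 56.8%, 28.6% and 14.6% of *Gm13443* but not to the division of *Hmgb1-ps7*. Calls in this list were lost when a single library was left out: 0 remained without Het1, Het2, Het3 or KO1, and 1 without KO2. *Hmgb2* (338 CPM in Het, 364 in KO) and *Hmgb3* (219 and 229), which encode related chromatin proteins, were not called, with edgeR adjusted p values of 0.221 and 0.226. The 95 pseudogene copies other than *Hmgb1-ps7* summed to 8.82 ± 0.326 CPM in Het and 12.4 ± 2.25 in KO (SD, n = 3 each), below the 39.1 of *Hmgb1-ps7* alone in KO.

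The same rule applied to *Rpl29*, after its values had been seen, gave 66 rows, of which 16 were tested besides *Rpl29* and *Gm17669*; *Gm15526*, at 204 bases, is too short for the rule. Of these 1 rose, *Gm8210* (947 to 2508 counts in Het, 3074 to 3840 in KO, 623 in WT; log2 fold change 1.197, edgeR adjusted p = 0.0490). The 2 that fell were *Gm10709* (242 to 483 counts in Het, 8 to 12 in KO, 194 in WT; log2 fold change -5.04, adjusted p = 0.000882) and *Gm5561* (15 to 19 counts in Het, 3 to 5 in KO; log2 fold change -2.06, adjusted p = 0.0213). The 3 calls are 18.75% of the 16, beside 7.22% of all genes tested. Without Het2 or without KO2 there was 1 call, and without Het1 there were 5. All 66 rows together came to 223 ± 48.4 CPM in Het and 52.2 ± 3.35 in KO (SD, n = 3 each), 23.4% of Het. The 62 pseudogenes among them besides *Gm17669* summed to 17.8 ± 3.75 in Het and 29.5 ± 3.48 in KO. The rise of that sum lay on *Gm8210*, at 11.1 ± 4.39 CPM in Het and 25.5 ± 3.10 in KO (SD, n = 3 each). It is therefore not a rise of these copies as a group, and the median log2 fold change of the 16 tested rows was -0.56.

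The 10 nearest tested genes on each side of every row were compared to see whether a stretch of chromosome moved together. Of the 160 neighbours 12 were called in KO against Het. No neighbour of *Hmgb1-ps7*, *Gm17669* or *Hmgb1* was called. *Gm13443* and *Gm12751* had 1 each, *Gm13446* and *Srsf12*, and *Gm15526* had 1, *Chn2*, which surrounds it. The neighbours of most rows thus stood near or below the 7.22% of all genes.

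The counts were higher for *1700001K19Rik* and *RP23-9C19.1*. Around *1700001K19Rik* 3 of 20 neighbours were called, all higher in KO: *Mok*, at 125 kb, and the long noncoding RNAs *Rian* (16.04 ± 1.27 CPM in Het, 26.3 ± 1.30 in KO; SD, n = 3 each) and *Meg3* (1.27 ± 0.271 and 2.67 ± 0.772) of the imprinted Dlk1-Dio3 region, about 1 Mb away. Around *RP23-9C19.1* 6 of 20 were called. The adjacent *Gpr137b* fell (log2 fold change -0.80, SE 0.0795, edgeR adjusted p = 0.00514), as did *Nid1*, the basement membrane protein nidogen 1 (log2 fold change -1.27, SE 0.223, edgeR adjusted p = 0.0196). *Lyst*, *Gng4*, *Ero1lb* and *Ryr2* rose, with log2 fold changes of 0.50, 1.16, 1.66 and 1.23. The 12 calls were 6 without Het2, 5 without Het3 and 4 without KO2. Calls over all genes fell from 1445 to 386, 496 and 612 in the same settings. No chance test was run on these counts.

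**Figure D3:**
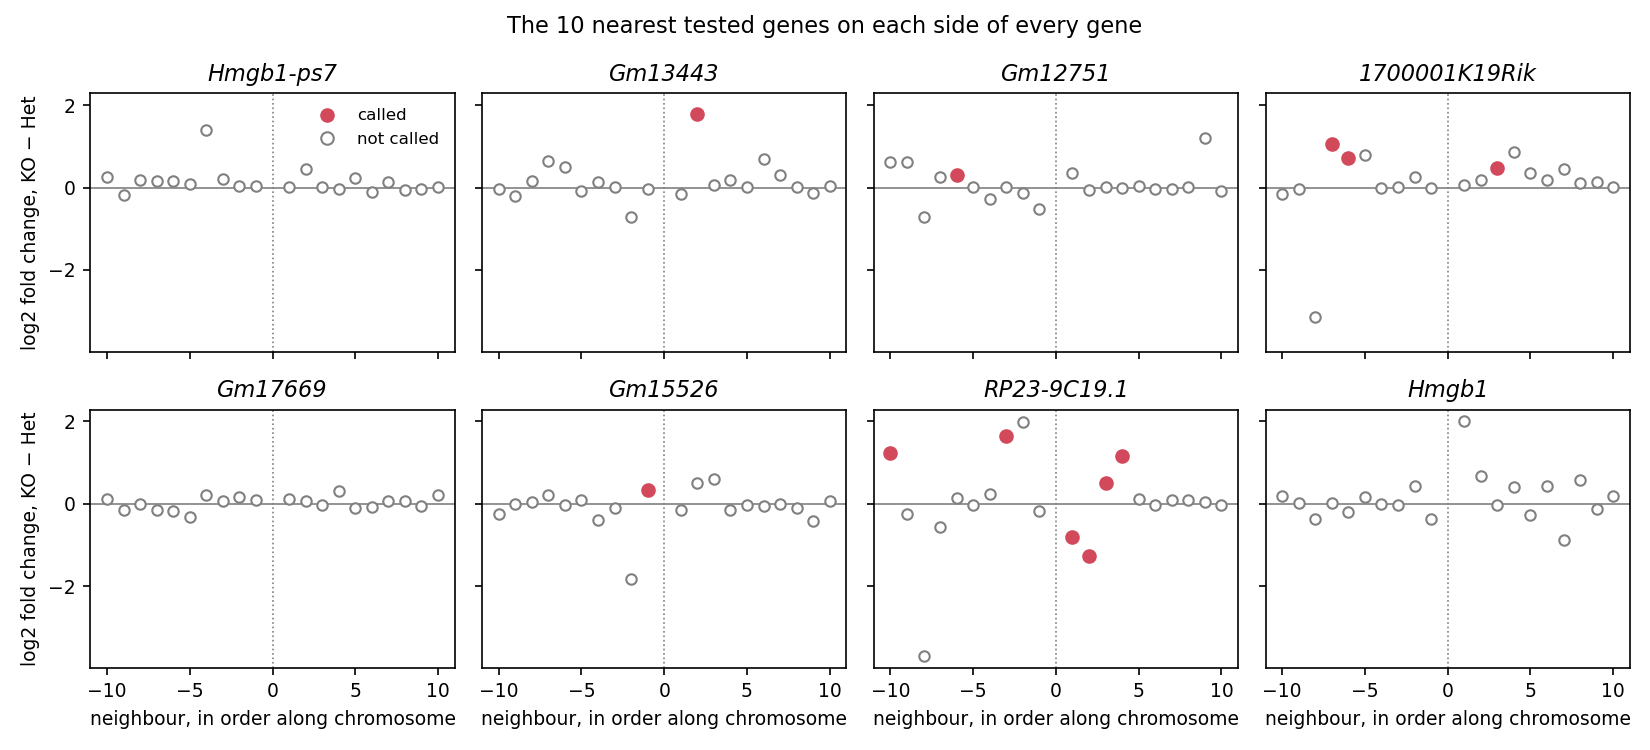
Log2 fold change of KO over Het for the 10 nearest tested genes on each side of every row, in order along the chromosome, with called genes filled and others open; 0 on the horizontal axis is the row itself. RP23-9C19.1 has 6 called neighbours, 1700001K19Rik 3, and Hmgb1-ps7, Gm17669 and Hmgb1 none.

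The stretch of chromosome 13 holds a duplicated pair of genes. *Ero1lb* lies 3.66 kb from *Gpr137b-ps*, a pseudogene of *Gpr137b*, and 712 kb further on *RP23-9C19.1* lies 7.19 kb from *Gpr137b*; the pair was chosen after its values were seen. *Gpr137b-ps* had 752, 776 and 185 counts in Het1 to Het3 and 2084, 2152 and 2139 in the KO libraries, with 663 in WT, and was not called (log2 fold change 1.99, SE 0.527, edgeR adjusted p = 0.0586). Like *Ero1lb*, it was lowest in Het3. *Gpr137b* had 5355, 3496 and 5536 counts in Het, 2464, 2450 and 2487 in KO and 5085 in WT. In the KO pools both genes of the *Ero1lb* side were thus higher and both of the *RP23-9C19.1* side lower than in Het.

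**Figure D4:**
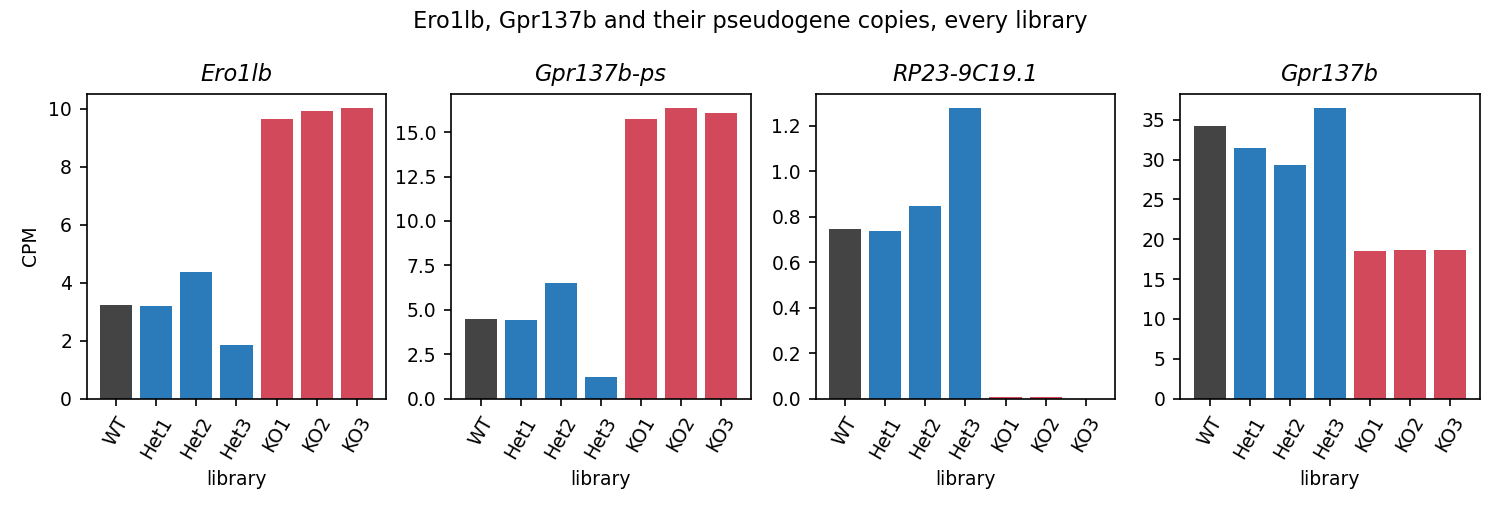
CPM in each of the 7 libraries (bars from 0; WT grey, Het blue, KO red) of Ero1lb and its neighbour Gpr137b-ps, and of RP23-9C19.1 and its neighbour Gpr137b. The first 2 are highest in KO and lowest in Het3, and the last 2 are lower in every KO library than in any other.

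Some rows overlap another gene. *Hmgb1-ps7* lies inside *Vmn2r59*, on the other strand, which had 0 counts in every library. *Gm17669* lies inside *Spire1*, on the other strand, which was not called. *Gm15526* lies inside *Chn2*, also on the other strand, which rose (18.9 ± 0.774 CPM in Het, 23.8 ± 1.30 in KO; SD, n = 3 each; log2 fold change 0.33, SE 0.0573, edgeR adjusted p = 0.0191), opposite to the row within it. Inside *1700001K19Rik* lies the microRNA gene *Gm27299*, on the other strand, with at most 2 counts in a library, and inside *RP23-9C19.1* the snoRNA gene *Gm25804*, with 0 counts. *Hmgb1* overlaps 7 annotated genes. The pseudogene *Gm8615*, on the same strand, had 129, 12 and 91 counts in Het, 209, 356 and 214 in KO and 71 in WT and was not called (log2 fold change 1.999, edgeR adjusted p = 0.0943). *Uspl1* and *Gm43332* were not called, *Gm23362* and *Gm42787* had 0 counts, and *5730422E09Rik* and *Gm42788* had at most 10 counts in a library and were not tested. The library kit keeps strand, but the strand setting of the counting is not given in the sources used here.

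To place the 7 rows, all rows were searched for a gap of at least 8-fold between the closest Het and KO libraries, with a mean of at least 50 counts in the higher genotype. There were 15: 4 higher in KO, which are the 4 described, and 11 lower, among them the 3 described. The gaps of the 4 rows high in KO ran from 10.9-fold for *1700001K19Rik* to 29.1-fold for *Hmgb1-ps7*, and those of the 3 rows low in KO, set against the floor, were at least 32.3-fold to at least 74.4-fold. Just inside the limit were *Gm4792* (8.14-fold), *Atp6v0c* and *1700001K19Rik*, and just outside it was *C920006O11Rik* (7.79-fold).

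Pseudogenes made up 11 of the 15 rows (73.3%) and 5.93% of all rows tested. WT was nearer Het in 15 of 15, without a share of all genes tested to set beside it. Besides *Rpl29*, the most abundant of the others were *Atp6v0c*, a subunit of the vacuolar proton pump (6794 to 7847 counts in Het, 461 to 592 in KO, 6156 in WT), and *Gm7993* (1043 to 3031 counts in Het, 22 to 32 in KO, 3040 in WT). By sequence *Gm7993* is a copy of *Odc1*, ornithine decarboxylase, at 95.3% identity, and *Odc1* was not called (369 ± 27.7 CPM in Het, 418 ± 3.23 in KO; SD, n = 3 each; edgeR adjusted p = 0.0858). *Prdx1* and *Prdx2*, the peroxiredoxin parents of *Gm21399* and *Tdpx-ps1*, were not called either, with edgeR adjusted p values of 0.426 and 0.643.

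The rows whose pattern over the 7 libraries was most like each member were found by the root mean square difference of log2(CPM + 0.5), each gene centred on its mean. The pseudocount of 0.5 CPM is above the lower genotype's mean of 6 of the 7 rows, so it shrinks their changes, and a small difference does not mean a change of equal size. *Mrps10*, the nearest to *RP23-9C19.1* at 0.15, was 2.95-fold lower in KO by its mean CPM, where *RP23-9C19.1* was at least 42.1-fold lower. *Gm13421*, the nearest to *1700001K19Rik* at 0.079, was 8.999-fold higher in KO, where *1700001K19Rik* was 21.5-fold higher. With a pseudocount of 2 only 5 of the 21 names were the same.

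With that limit, *Gm13443* and *Gm12751* were each other's nearest row, at 0.36, with ratios of 32.4-fold and 24.6-fold; the next were *C1ql2* and *Omg* for the former and *Gm15487* and *Omg* for the latter. *Hmgb1-ps7* had no close match, its nearest being *Nr2e3*, a rod photoreceptor transcription factor, at 0.94 and 10.1-fold higher in KO, then *Gm12751* and *Gm13443*. *Gm15526* was nearest to *Gm10709*, another *Rpl29* copy, at 0.18 and 33.2-fold lower in KO, then *Wdfy1* and *Rnaset2b*. The others listed were *Egfem1*, *Gm21399* and *1190007I07Rik* for *Gm17669*, *9030617O03Rik* and *Gad1* for *1700001K19Rik*, and *Abhd14a* and *Rnaset2b* for *RP23-9C19.1*.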

How the data were processed

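The deposited table holds raw counts per gene that the authors made with STAR within rMATS-turbo, on GRCm38 with GENCODE M10, and featureCounts; strand setting and treatment of multi-mapping reads are not given in the sources used here. The switching genes and gene lists were chosen with earlier results of these data known. The 7 libraries (120593979 to 171117305 counts) entered edgeR 4.0.16 under R 4.3.3, with 20019 rows left by filterByExpr, TMM factors 0.988 to 1.03, 1 quasi-likelihood fit with a mean per genotype and a coefficient of variation between replicates of 21.5%. The Benjamini-Hochberg adjustment covered all rows tested, and a gene was called at an adjusted p under 0.05 and a change beyond 1.2-fold, the limits of the study. The code was tested on simulated data with less variation between replicates than here and with changes well beyond 1.2-fold. That test does not show how well smaller changes are found in these libraries. DESeq2 1.42.0 was an alternative. CPM used TMM library sizes. Each SE of a log2 fold change is the size of that change divided by the square root of its quasi-likelihood F statistic. Gene positions and transcripts came from GENCODE M21, which matched 48058 identifiers, and alignments were made with blastn.

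Genes were named by rule: all 8 rows, their parents, overlapping genes, called *Hmgb1* copies, up to 3 called neighbours, the 3 most similar patterns and the 3 most abundant other switching rows. The *Rpl29* copies, the parents of other switching rows and the chromosome 13 pair, and the further neighbours of *RP23-9C19.1*, were added after the values were seen. The replicate numbers were not used to pair the samples. Deviations of same-numbered Het and KO libraries correlated at -0.143, 0.249 and -0.0063. Differently numbered libraries were not compared, so these values cannot decide whether same-numbered pools share a litter. One sequence is not reported here. Differences of allele or strain between the pools were not tested.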

Additional observations from a re-analysis of the deposited data

How the results depend on the processing

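With a library left out, the ratio of 1 of the 7 switching genes moved by over 1.5 times: *Gm13443* was 20.97-fold higher without KO1 in place of 32.4-fold. DESeq2 called 1 of the 8 rows for WT against Het in place of 0, and 19 of the neighbours in place of 12. With 25 neighbours on each side, so 50 for each row in place of 20, 35 were called. With 10 on each side and 1 library left out, 4 (without KO2) to 12 were called, with 6 without Het2 and 5 without Het3. Called parents were 1 to 2 in place of 2, the lowest without KO2. Called *Hmgb1* copies were 0 to 2 in place of 2 with a library left out, and 1 among rows named Hmgb1-ps. Called *Rpl29* copies were 1 to 5 in place of 3 with a library left out, and 1 with at least 10 counts in every library. Over all genes, calls ran from 386 without Het2, 496 without Het3 and 612 without KO2 to 2066 with DESeq2, in place of 1445. Gaps of 4-fold and 16-fold gave 34 (13 higher, 21 lower) and 9 (1 higher, 8 lower) switching rows in place of 15. With a pseudocount of 2, 5 of the 21 most similar genes were shared.

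Whether Het and KO libraries of the same replicate number share more than that number is not known. With the replicate number as a block, 1268 genes were called in place of 1445, and the log2 ratios of *Hmgb1-ps7*, *Gm13443*, *Gm12751* and *1700001K19Rik* were 5.55, 4.82, 4.58 and 4.37. *Hmgb1* stayed uncalled, with a log2 fold change of 0.14 and an adjusted p of 0.0882 by edgeR.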
